A study of Rattus norvegicus with 8 samples.

Results

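A set of 10 genes that drive cells through mitosis was followed in endothelial cells taken from rat lungs, and 9 of them could be measured: the cyclin genes Ccna2, Ccnb1 and Ccnb2, the kinase genes Cdk1, Plk1, Aurka and Aurkb, and the ubiquitination genes Cdc20 and Ube2c. The 10 genes were chosen by name, as mitotic cyclins, kinases and factors of the anaphase-promoting complex (APC/C), with earlier results of these data known. Probes were assigned to them through the RefSeq accession that each probe carries. No probe matched Melk, which encodes a further mitotic kinase. The 9 measured genes had 10 of the 30367 non-control probes, and they are 9 of the 19137 genes tested.

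Monocrotaline rats had received 60 mg/kg of the compound under the skin, and saline rats had received saline by the same route, with 4 animals in each group. All were Sprague-Dawley rats aged 8 to 10 weeks. Lungs were taken 5 days after the injection, digested with collagenase and passed over beads coated with an antibody to CD31, and RNA was taken from the cells on the beads without culture. Monocrotaline is a plant alkaloid whose injury to lung vessels serves as a rat model of pulmonary hypertension, and the comparison asks which endothelial genes differ early in that model. CD31 is found on endothelial cells and also on platelets and some leukocytes, so the selection does not exclude those cells.

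Entry into mitosis is driven by the kinase CDK1, which is active only when bound to a cyclin of the A or B type. Polo-like kinase 1 and the Aurora kinases then build the spindle and attach the chromosomes to it. The APC/C, a ubiquitin ligase, ends mitosis by marking cyclins and securin for destruction, helped by its activator CDC20 and by the ubiquitin-conjugating enzyme UBE2C. Transcripts of many of these genes are low in resting cells and accumulate in late S, G2 and M phase, and most endothelial cells of a healthy adult lung are out of the cell cycle.

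Each animal was read on its own 1-colour array, and all signals below are scaled log2 signals, in which 0 is the 75th percentile of the array. Per array, 70.8% to 77.7% of non-control spots were well above background, and no spot was saturated. All 8 arrays lay on 1 slide, with the monocrotaline samples in row 2 and the saline samples in row 1, so slide row and treatment cannot be told apart. All 12 of the measured endothelial markers, Pecam1 and Cdh5 among them, were well above background on every array. At an unadjusted p under 0.05 by limma, 7 of the 12 were lower, against 1383 of the 19137 genes tested. None of the 12 passed the test, and all 12 had negative log2 fold changes. Their mean, taken relative to the saline mean, lay between -0.85 and -0.10 on the monocrotaline arrays and between -0.28 and 0.36 on the saline arrays. The number of arrays limits the precision of every value.

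The promoters of genes of this class share 2 short elements, the cell cycle genes homology region (CHR, TTTGAA), which the DREAM and MuvB complexes bind, and the CCAAT box (CCAAT), which binds NF-Y. RefSeq promoter windows of 300 bases on the GRCr8 build, 250 before and 50 after an annotated start, were matched for 7 of the 10 genes: Ccnb1, Ccnb2, Cdk1, Plk1, Aurka, Cdc20 and Melk. Both strands were searched for the exact letters, and no CHR match overlapped a CCAAT match. The CHR was found in 4 of the 7 windows, against 18.3% of all 33469 windows, and the CCAAT box in 5 of 7, against 37.5%. A single form of the E2F site was searched (TTCCCGC), and its letters were in 0 of the 7, against 4.21% of all windows. Other forms of that site were not searched, so the windows may hold some. The windows printed are those of Cdk1, which rose after monocrotaline, of Ccnb2, with its row of CCAAT boxes, and of Cdc20, which holds the same elements and did not pass the test. They lie at chr20:19265043-19265342 on the plus strand (Cdk1), chr8:79981609-79981908 on the minus strand (Ccnb2) and chr5:137255750-137256049 on the minus strand (Cdc20), are written 5′ to 3′ in the direction of the gene, and have CHR and CCAAT matches in capitals (TTCAAA and ATTGG on the opposite strand).
Cdk1: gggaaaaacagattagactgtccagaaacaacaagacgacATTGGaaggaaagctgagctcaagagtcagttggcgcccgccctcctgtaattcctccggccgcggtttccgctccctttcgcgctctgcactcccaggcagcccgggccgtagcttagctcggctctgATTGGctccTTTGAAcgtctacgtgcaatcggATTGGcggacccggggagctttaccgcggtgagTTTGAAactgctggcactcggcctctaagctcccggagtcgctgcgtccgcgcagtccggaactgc
Ccnb2: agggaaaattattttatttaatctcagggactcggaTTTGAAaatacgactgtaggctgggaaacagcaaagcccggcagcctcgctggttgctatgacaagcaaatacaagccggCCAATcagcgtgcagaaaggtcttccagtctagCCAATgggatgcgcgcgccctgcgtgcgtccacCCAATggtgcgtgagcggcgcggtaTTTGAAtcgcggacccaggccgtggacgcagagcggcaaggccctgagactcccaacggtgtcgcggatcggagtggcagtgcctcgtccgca
Cdc20: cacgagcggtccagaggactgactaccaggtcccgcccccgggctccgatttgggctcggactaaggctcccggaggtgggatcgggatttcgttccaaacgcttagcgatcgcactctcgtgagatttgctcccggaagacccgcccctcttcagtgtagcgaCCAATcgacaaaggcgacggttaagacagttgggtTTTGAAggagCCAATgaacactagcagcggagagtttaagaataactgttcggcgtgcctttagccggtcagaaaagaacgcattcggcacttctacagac

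Cdk1 and Ccnb2 each held 2 CHR and 3 CCAAT matches, Cdc20 held 1 and 2, Plk1 held 1 of each, and Ccnb1 held 2 CCAAT matches and no CHR match. The CCAAT boxes of Ccnb2 began 134, 101 and 68 bases before the start on which its window is set. Its nearer CHR began 43 bases before that start. The start used lies 59 bases inside the annotated gene for Ccnb2 and 41 for Cdk1, so their matches lie nearer to the outer end of the gene or inside it. In the Aurka window neither element was found, but the start on which that window is set lies 2121 bases inside the annotated gene, so the window need not cover the outer promoter. A match is a stretch of letters and not a measured binding site.

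**Figure D1:**
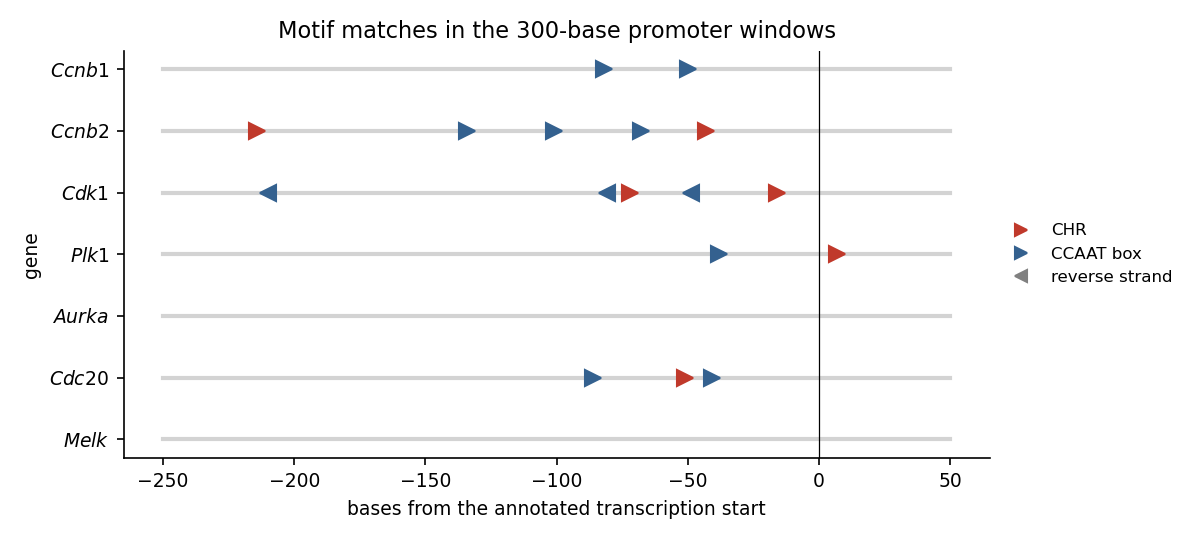
Positions of CHR (red) and CCAAT (blue) matches in the promoter windows of the 7 matched genes, in bases from the annotated start on which each window is set; arrowheads to the left are matches on the opposite strand. Cdk1 and Ccnb2 carry 5 matches each, and Aurka and Melk carry none.

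Of the 9 measured genes, Ccna2, Cdk1 and Aurkb rose after monocrotaline and 0 fell, a count of 3 of 9 (limma, Benjamini-Hochberg adjusted p under 0.05 over all genes tested). Over all genes tested 1.37% rose and 0.0627% fell by the same rule. Arrays with the same replicate number share a slide column, and with that number as a block 0 of the 9 genes and 0 of all genes tested passed, with 7 of the 9 higher at an unadjusted p under 0.05. The blocked adjusted p was 0.0685 for Ccna2, 0.104 for Cdk1 and 0.0663 for Aurkb by limma. Within slide columns, monocrotaline minus saline for replicates 1 to 4 was 2.71, 1.80, 1.40 and 2.15 for Ccna2, 2.60, 1.56, 1.09 and 1.77 for Cdk1, and 2.33, 1.47, 1.56 and 1.62 for Aurkb, above 0 in every column. All 9 measured genes were well above background on all 8 arrays, so the filter on dim probes had no part in which of them were tested. Their log2 fold changes were all positive, with a median of 1.33, while the median over all genes tested was -0.03 and 46.1% of them were positive. At an unadjusted p under 0.05, 7 of the 9 were higher, against 6.72% of all genes. In 6 of the 9 every monocrotaline array lay above every saline array, against 4.56% of all genes, and 0 lay wholly below, against 3.99%. In bulk RNA, a larger share of dividing cells and more transcript per dividing cell cannot be told apart.

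**Figure D2:**
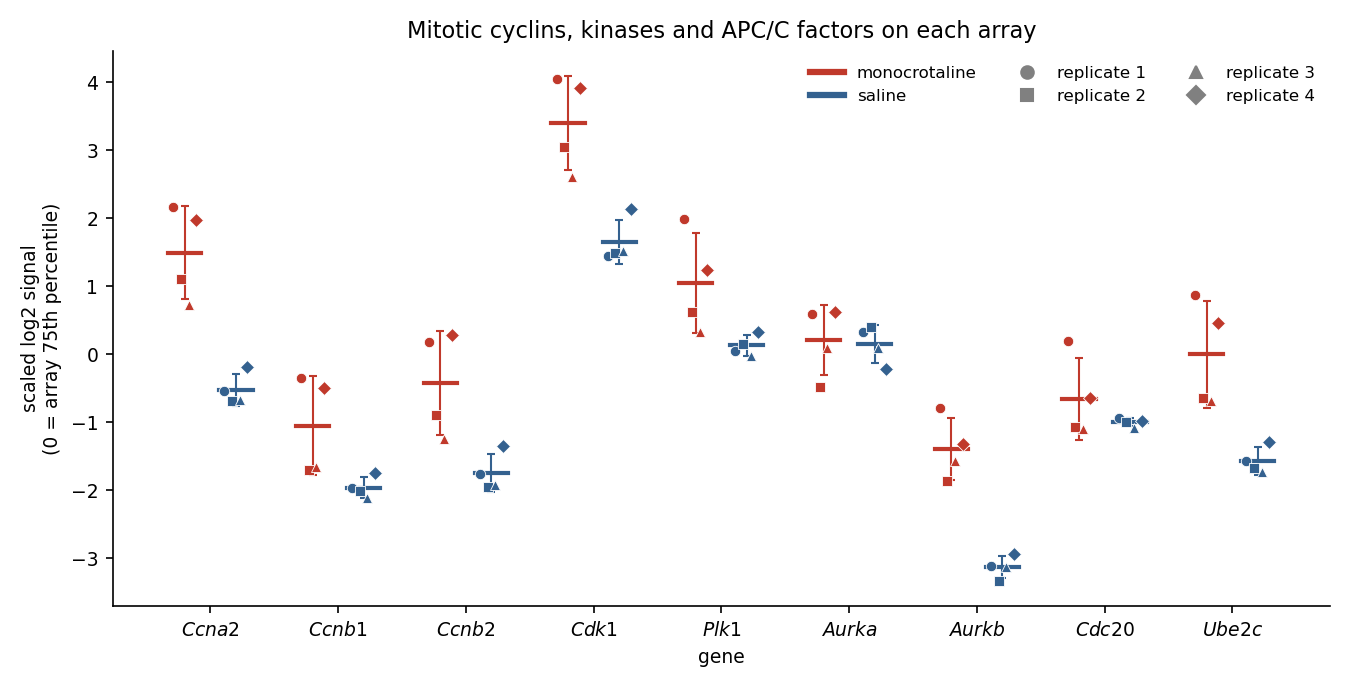
Scaled log2 signal (vertical axis, 0 is the 75th percentile of the array) of the 9 measured genes on each array, with monocrotaline in red to the left of saline in blue; symbols mark the replicate, bars the mean and whiskers the SD of 4 arrays. Monocrotaline replicates 1 and 4 are the 2 highest arrays of their group for all 9 genes, and the groups overlap for Plk1, Aurka and Cdc20. Levels of different genes rest on different probes and are not comparable.

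Ccna2 encodes cyclin A2, which acts with CDK2 in S phase and with CDK1 at the approach to mitosis. Its brighter probe read 2.17, 1.11, 0.73 and 1.97 on monocrotaline replicates 1 to 4, against -0.53, -0.69, -0.68 and -0.18 on saline replicates 1 to 4. The groups do not overlap, and the lowest monocrotaline array lies 0.91 above the highest saline array. This was a 4.05-fold rise (log2 fold change 2.02 ± 0.32, SE, 4 arrays a group; adjusted p = 0.0261 by limma). The second Ccna2 probe read 1.79, 0.82, 0.40 and 1.85 on the monocrotaline arrays, against -0.87, -1.14, -1.13 and -0.62 on the saline arrays. With every probe tested on its own, its log2 fold change was 2.15 ± 0.34 (SE, 4 arrays a group; adjusted p = 0.0250 by limma).

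Cyclins B1 and B2, the partners of CDK1 in mitosis itself, were higher on every monocrotaline array than on any saline array but did not pass the test. Ccnb1 read -0.35, -1.70, -1.66 and -0.49 on the monocrotaline arrays, against -1.96, -2.02, -2.12 and -1.75 on the saline arrays. Monocrotaline replicates 2 and 3 lay only just above the saline group, by as little as 0.05, while replicates 1 and 4 stood well clear of it. The log2 fold change of Ccnb1 was 0.91 ± 0.33 (SE, 4 arrays a group; adjusted p = 0.283 by limma), with a 95% interval of 0.16 to 1.67.

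Ccnb2 read 0.18, -0.89, -1.24 and 0.29 on the monocrotaline arrays, against -1.76, -1.95, -1.92 and -1.35 on the saline arrays. As for Ccnb1, replicates 1 and 4 were the highest, and the gap between the groups was small, at 0.11. The log2 fold change of Ccnb2 was 1.33 ± 0.36 (SE, 4 arrays a group; adjusted p = 0.148 by limma), with a 95% interval of 0.51 to 2.15.

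Cdk1, the kinase gene whose promoter is printed above, rose 3.37-fold. It read 4.05, 3.06, 2.61 and 3.91 on the monocrotaline arrays, against 1.45, 1.49, 1.52 and 2.14 on the saline arrays. The groups do not overlap, although saline replicate 4 stood apart from the other saline arrays and reached to within 0.47 of the lowest monocrotaline array. The log2 fold change was 1.75 ± 0.34 (SE, 4 arrays a group; adjusted p = 0.0496 by limma), which lies close to the threshold. Cdk1 was spotted 10 times on each array, and the log2 signals of these spots spanned between 0.08 and 0.19 within an array. The monocrotaline arrays spanned 1.44. Repeat spots of an array share its RNA, amplification, labelling and hybridisation, so their span does not measure the technical spread between arrays.

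Plk1, which encodes a kinase acting from mitotic entry to cytokinesis, read 1.98, 0.62, 0.33 and 1.24 on the monocrotaline arrays, against 0.05, 0.16, -0.02 and 0.33 on the saline arrays. Of the monocrotaline arrays 3 lay above every saline array, and replicate 3 lay level with the highest saline array. Its log2 fold change was 0.91 ± 0.33 (SE, 4 arrays a group; adjusted p = 0.284 by limma), which did not pass.

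Of the Aurora kinase genes, Aurkb passed the test and Aurka did not. Aurkb, the catalytic subunit of the chromosomal passenger complex at centromeres and the midzone, read -0.79, -1.87, -1.57 and -1.32 on the monocrotaline arrays, against -3.12, -3.34, -3.13 and -2.94 on the saline arrays. Its groups were 1.07 apart, the widest gap among the 9 genes, and it rose 3.34-fold (log2 fold change 1.74 ± 0.23, SE, 4 arrays a group; adjusted p = 0.0135 by limma). Aurka, which acts at centrosomes and spindle poles, read 0.59, -0.48, 0.09 and 0.62 on the monocrotaline arrays, against 0.33, 0.41, 0.09 and -0.21 on the saline arrays. Here the groups overlap fully, and the lowest of all 8 arrays is a monocrotaline one. The log2 fold change of Aurka was 0.05 ± 0.27 (SE, 4 arrays a group; adjusted p = 0.954 by limma), with a 95% interval of -0.56 to 0.66.

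Neither APC/C factor passed the test. Ube2c, whose product adds the first ubiquitins to APC/C substrates, read 0.87, -0.64, -0.69 and 0.46 on the monocrotaline arrays, against -1.57, -1.68, -1.74 and -1.28 on the saline arrays. The groups were 0.59 apart, and the log2 fold change of 1.57 ± 0.36 did not pass (SE, 4 arrays a group; adjusted p = 0.0887 by limma). Cdc20, the mitotic activator of the APC/C, read 0.20, -1.07, -1.10 and -0.64 on the monocrotaline arrays, against -0.93, -0.99, -1.08 and -0.99 on the saline arrays. Monocrotaline replicates 1 and 4 exceeded the saline range, which was narrow. Replicate 2 lay near the lower end of that range and replicate 3 just below it. Cdc20 had a log2 fold change of 0.35 ± 0.27 (SE, 4 arrays a group; adjusted p = 0.616 by limma), with a 95% interval of -0.28 to 0.97.

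Related genes were also set side by side as the log2 ratio of their signals within each array, which does not depend on the scaling between arrays. The 5 pairs were chosen by family or role with the values known, so the differences are a description and carry no test. The mean ratio of Aurkb over Aurka was 1.69 higher in the monocrotaline samples and that of Ube2c over Cdc20 1.22 higher. Ccna2 over Ccnb1 was higher by 1.10, Cdk1 over Plk1 by 0.84 and Ccnb2 over Ccnb1 by 0.42. These are differences of log2 ratios, since the level of a ratio depends on its probes.

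The monocrotaline animals differed from each other in the same way across the genes. Replicate 1 was the highest monocrotaline array for 7 of the 9 genes and replicate 4 for the other two, while replicate 3 was the lowest for 6 and replicate 2 for 3. The mean difference of the 9 genes from their saline means was 1.88, 0.68, 0.61 and 1.56 on monocrotaline replicates 1 to 4, against -0.01, -0.07, -0.12 and 0.19 on saline replicates 1 to 4. Over the monocrotaline arrays the SD of the 5 log2 ratios was between 0.18 and 0.32, below that of both genes of each pair, as for Ccna2 (0.69) and Ccnb1 (0.73) with 0.18 for their ratio. On the saline arrays this did not hold for every pair. Aurkb over Aurka had an SD of 0.43 there, against 0.16 for Aurkb and 0.28 for Aurka. Ube2c over Cdc20 had 0.18, against 0.20 for Ube2c and 0.06 for Cdc20. Cdk1 over Plk1 had 0.21, against 0.33 for Cdk1 and 0.15 for Plk1. For the remaining pairs it held. All 9 genes varied more among monocrotaline animals, with a median SD of 0.69 there and 0.20 in the saline group. Over all genes tested the SD was larger in the monocrotaline group for 59.2%, with medians of 0.29 and 0.25 in the monocrotaline and saline groups.

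Saline replicate 4 was the highest saline array for 7 of the 9 genes, Cdc20 and Aurka being the exceptions. For Aurka it was the lowest.

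**Figure D3:**
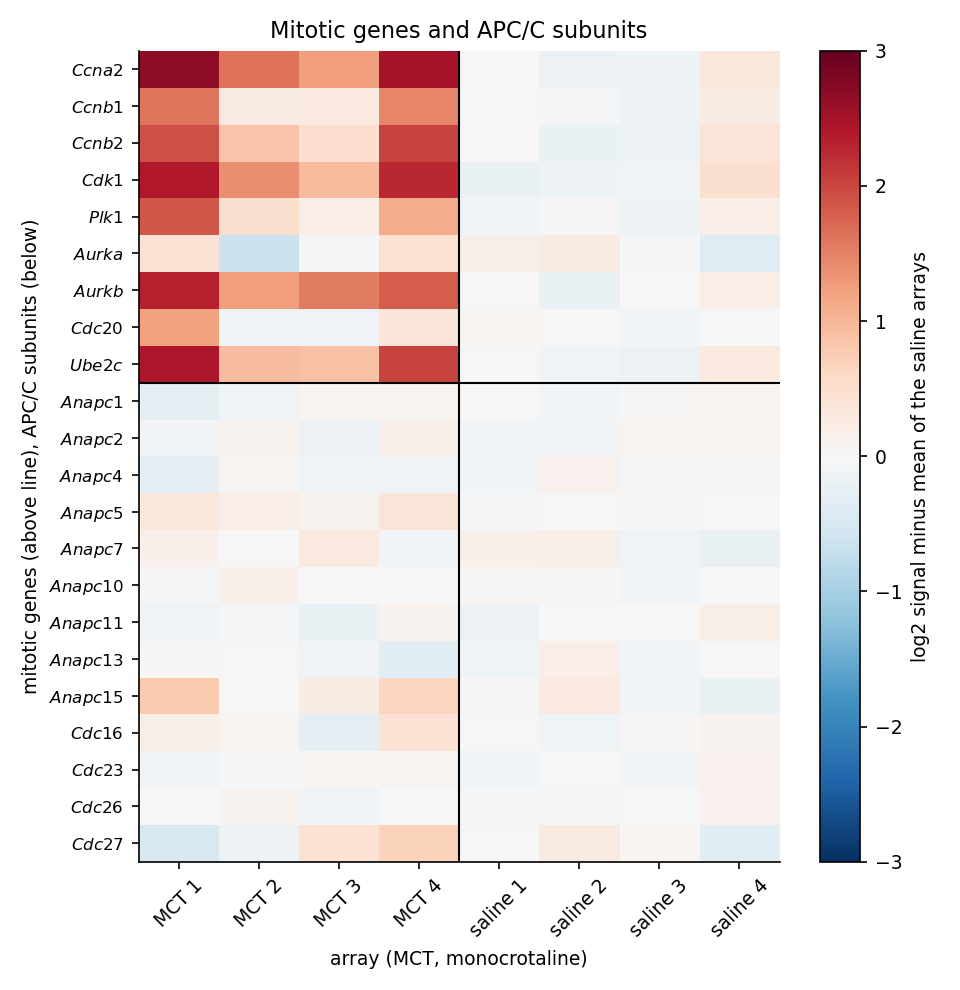
Difference of each log2 signal from the gene's mean over the saline arrays (colour, red higher and blue lower), for the 9 measured genes (above the line) and 13 subunits of the APC/C (below it), on monocrotaline arrays (left) and saline arrays (right). Monocrotaline replicates 1 and 4 are the darkest columns for the mitotic genes, and no subunit differs by more than 1 log2 unit on any array.

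Around these 9 genes, 65 others of the same machinery were listed by role, of which 54 were tested. Of these 14 rose and 0 fell, against 1.37% and 0.0627% of all genes tested, and their median log2 fold change was 0.55. At an unadjusted p under 0.05, 27 were higher, against 6.72% of all genes. The counts by role below are to be read against the same shares. The lists were drawn up with earlier results of these data known, so all these counts are a description and not independent support. The count of 14 became 6 or 5 without monocrotaline replicate 1 or 4, and 1, 5, 5 or 6 without saline replicate 1, 2, 3 or 4, while without monocrotaline replicate 2 or 3 it was 12 or 17. Without monocrotaline replicates 1 and 3, left out after the data were seen, it was 4.

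The core subunits of the APC/C gave no call. Of 13 tested 0 rose and 0 fell by limma, none reached an unadjusted p under 0.05, and their log2 fold changes ran from -0.11 to 0.41 with a median of 0.01. Anapc5, the subunit with the highest mean signal, read 3.36, 3.24, 3.15 and 3.44 on the monocrotaline arrays, against 3.01, 3.05, 3.08 and 3.07 on the saline arrays. These arrays do not overlap, but the difference was small and did not pass (log2 fold change 0.25 ± 0.11, SE, 4 arrays a group; adjusted p = 0.368 by limma).

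Regulators and substrates of the APC/C were divided, with 5 of 14 higher, 0 lower and a median of 0.19. Espl1, separase, which cuts cohesin once the APC/C has removed securin, rose by 2.22 ± 0.37 (log2 fold change ± SE, 4 arrays a group; adjusted p = 0.0304 by limma). Fbxo5, EMI1, an inhibitor of the APC/C before mitosis, rose by 2.20 ± 0.31 (limma adjusted p = 0.0160). Trip13, an ATPase that takes apart the mitotic checkpoint complex, rose by 1.98 ± 0.25 (limma adjusted p = 0.0134). Mad2l1, a checkpoint protein that holds CDC20, and Gmnn, geminin, an APC/C substrate that blocks relicensing, were the other two. In contrast, Fzr1, the CDH1 activator used by the APC/C after mitosis and in G1, had a log2 fold change of 0.05 ± 0.16 (limma adjusted p = 0.920), and Ube2s, the enzyme that extends ubiquitin chains, one of 0.17.

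Genes of mitotic entry gave 5 rises and 0 falls among 16 tested, with a median of 0.81. Mybl2, the B-MYB factor that joins MuvB to switch on mitotic genes, rose 7.16-fold (log2 fold change 2.84 ± 0.24, SE, 4 arrays a group; adjusted p = 0.00523 by limma). Foxm1, a transcription factor for the same gene set, rose 3.48-fold (1.80 ± 0.33). Mastl, the Greatwall kinase, which restrains the phosphatase that opposes CDK1, rose 4.53-fold (2.18 ± 0.35). Its substrates Arpp19 and Ensa, through which it acts on that phosphatase, had log2 fold changes of 0.15 and -0.11 and did not pass. Pkmyt1, a kinase that inhibits CDK1, was called too, and Wee1, another such kinase, had 0.74 ± 0.16 (limma adjusted p = 0.0676).

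Of 11 tested Polo and Aurora kinases and partners 4 rose and 0 fell, with a median of 1.53. Pbk, a mitotic kinase, rose 7.24-fold, and Ttk, the checkpoint kinase MPS1, rose 3.82-fold. Tpx2, the spindle protein that activates Aurora A, rose by 1.81 ± 0.31 on the log2 scale (SE, adjusted p = 0.0334 by limma), with -0.29, -1.41, -1.50 and -0.62 on the monocrotaline arrays, against -2.90, -3.03, -2.88 and -2.24 on the saline arrays. Thus the groups were well separated for Tpx2 where they overlapped for Aurka. The partners of Aurora B in the chromosomal passenger complex, Incenp, Birc5 and Cdca8, had log2 fold changes of 1.31, 1.64 and 1.17, with no overlap between the groups, and did not pass. Plk3, a stress-responsive relative of Plk1, had -0.82 ± 0.35 (limma adjusted p = 0.354).

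**Figure D4:**
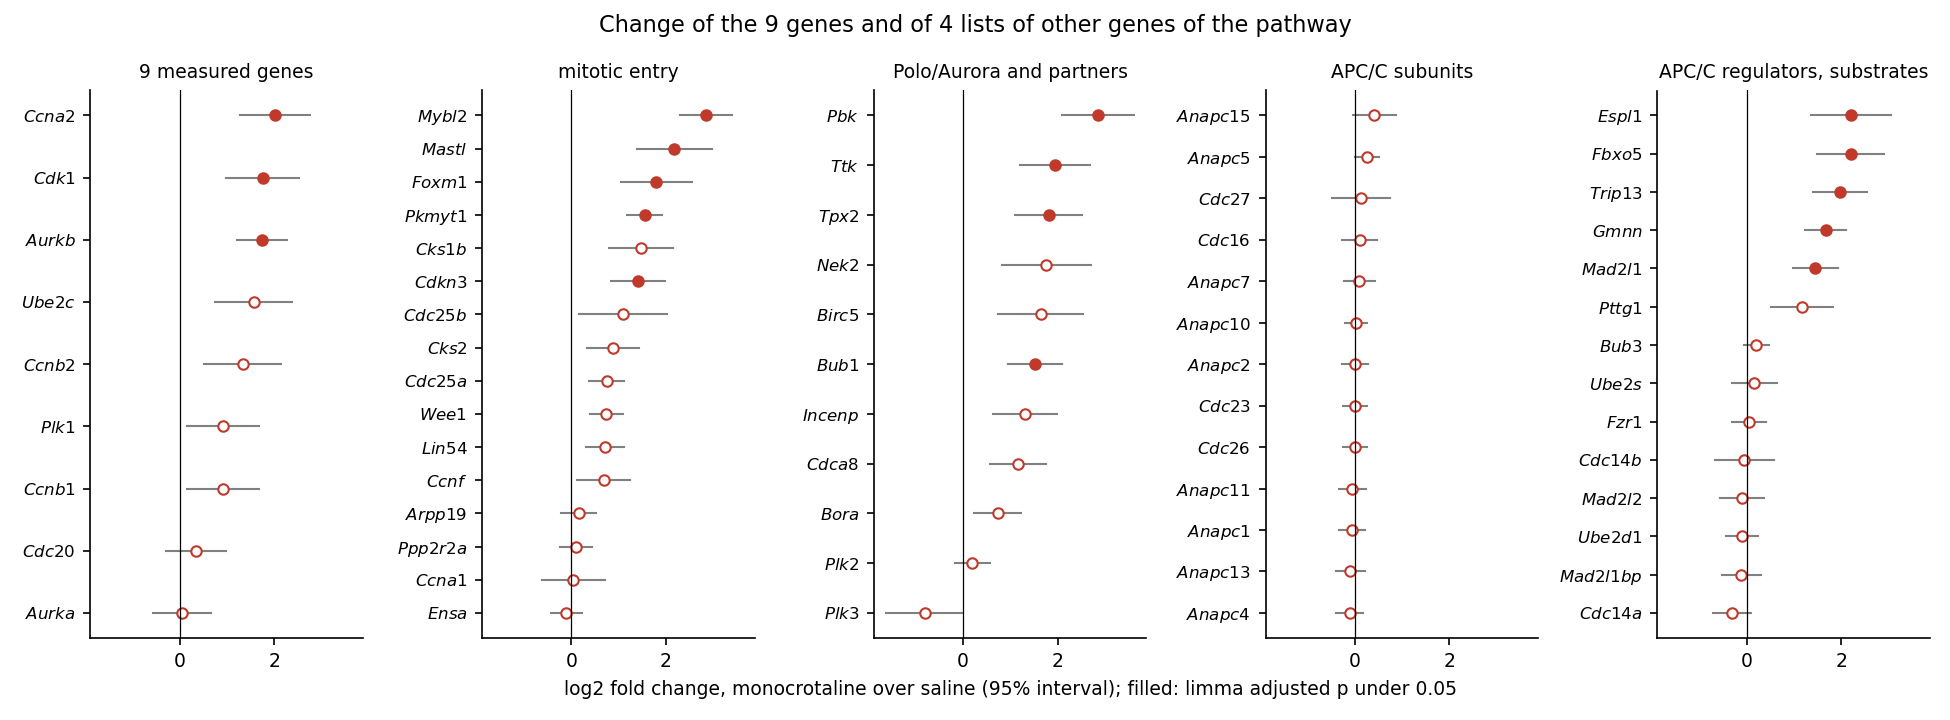
Log2 fold change, monocrotaline over saline, with its 95% interval (horizontal axis) for the 9 measured genes and for 4 lists of other genes of the machinery, each gene on a row; filled points have a limma adjusted p under 0.05 over all genes. Filled points number 3, 5, 4, 0 and 5 from the left panel to the right, and the APC/C subunits lie around 0.

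Among 11426 other genes with an established symbol, 5 followed the mean of the 9 genes most closely over the 8 arrays, by the root mean square difference of log2 signals, each taken relative to its saline mean. They were Pttg1 (0.10), which encodes the APC/C substrate securin, Cenpa (0.11), the centromeric histone, Fam72a (0.12), Cep55 (0.14), which acts in abscission, and Sapcd2 (0.14). The 9 genes themselves lay between 0.20 (Ccnb2) and 0.86 (Aurka) from their own mean. The 5 genes were picked as the closest of 11426, so their smaller distances follow from the choice. Pttg1 read 2.97, 1.71, 1.75 and 2.38 on the monocrotaline arrays, against 0.92, 0.97, 0.91 and 1.33 on the saline arrays, and did not pass (log2 fold change 1.17 ± 0.28, SE, 4 arrays a group; adjusted p = 0.109 by limma).

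Markers of other cells were examined on the same arrays. All 19 T and NK cell markers tested had positive log2 fold changes and 3 of them rose (Cd247, Cd8b and Zap70), against 1.37% of all genes tested. Their mean relative to saline was 1.33, 1.00, 1.94 and 1.54 on the monocrotaline arrays, against 0.38, 0.16, 0.32 and -0.86 on the saline arrays, and 18 of the 19 were well above background on every array. At an unadjusted p under 0.05 by limma, 16 of these 19 markers were higher, against 6.72% of all genes. In 15 of the 19 every monocrotaline array lay above every saline array, against 4.56% of all genes. The median log2 fold change of the 19 was 1.66. The T and NK cell markers were highest on monocrotaline replicate 3, where 6 of the 9 mitotic genes had their lowest monocrotaline value. Airway secretory and ciliated markers (8 tested, 0 called, 4 at an unadjusted p under 0.05, limma) had means of 3.28, 0.46, 3.42 and 0.69 on the monocrotaline arrays, against 0.71, -1.12, 0.55 and -0.13 on the saline arrays. They were highest on replicates 1 and 3, and the 6 erythroid markers, with 0 called and 0 at an unadjusted p under 0.05 by limma, on replicate 3 (2.80). Platelet markers (6 tested, 0 called, 0 at an unadjusted p under 0.05, limma) had means of 1.98, 0.30, -0.73 and 0.18 on the monocrotaline arrays, against 0.44, -0.31, 0.22 and -0.35 on the saline arrays. Platelet markers were thus highest on replicate 1, where 7 of the 9 mitotic genes were highest too. Markers of monocytes and interstitial macrophages (12 tested, 0 called, 1 at an unadjusted p under 0.05, limma) had means of 0.22, -0.82, 0.27 and 0.80 on the monocrotaline arrays, against 0.13, 0.23, 0.15 and -0.51 on the saline arrays, and were highest on replicate 4. Fibroblast and mesothelial markers (9 tested, 0 called, 1 at an unadjusted p under 0.05, limma) all had positive log2 fold changes, with a median of 1.16. Their means were 1.66, 1.07, 1.54 and 0.13 on the monocrotaline arrays, against 0.60, -1.75, 1.26 and -0.11 on the saline arrays, so the groups overlap. The part of these cells in the mitotic gene values was not tested.

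**Figure D5:**
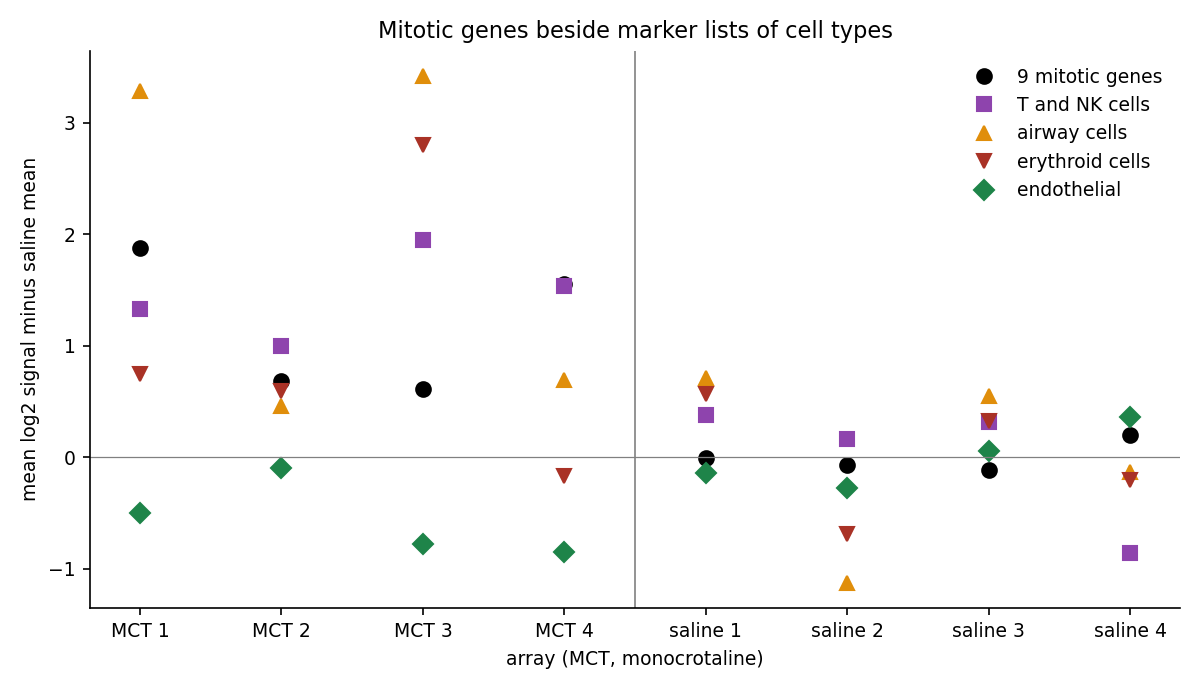
Mean log2 signal relative to the saline mean (vertical axis) of the 9 mitotic genes and of marker lists for T and NK, airway, erythroid and endothelial cells on each array, monocrotaline left and saline right. The mitotic genes are highest on monocrotaline replicates 1 and 4, the airway markers on 1 and 3, and the T and NK cell markers on 3 and 4.

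The calls depended on single arrays. Aurkb did not pass without monocrotaline replicate 4 (limma adjusted p = 0.0547) or saline replicate 1 (0.0639). Ccna2 passed without monocrotaline replicate 2 or 3 and did not pass without replicate 1 (0.0629) or 4 (0.0916), or without saline replicate 1 (0.0972), 2 (0.0726), 3 (0.0746) or 4 (0.0570). Cdk1 passed only without monocrotaline replicate 3, its other adjusted p-values lying between 0.0542 and 0.164, and it did not pass with median scaling (limma adjusted p = 0.0629) or with no filter on dim probes (0.0700). The log2 fold changes moved little, between 1.79 and 2.27 for Ccna2, 1.54 and 2.02 for Cdk1 and 1.54 and 1.90 for Aurkb. With monocrotaline replicates 1 and 3 both left out, chosen after their airway markers were seen, the 3 genes had 2.06, 1.83 and 1.53 and did not pass (limma adjusted p = 0.0612, 0.101 and 0.0608), and 7 of the 9 genes were higher at an unadjusted p under 0.05.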

How the data were processed

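Per the labels' protocols, 10 ng of RNA per sample was amplified and labelled with Cy3. Per the file headers, the deposited signal columns are an intensity read with Agilent Feature Extraction 10.7.3.1, background-subtracted and detrended within each array. In the deposited value table the log2 was applied again to log2 values, and 2 to the power of an entry equals the quantile-normalized log2 signal (median absolute difference 9.96e-10). Limma 3.6.9 is also named, with no role, in the submitters' processing notes.

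Control spots and outlier-flagged spots were left out, the processed signals of a probe's spots averaged and log2 values scaled to each array's 75th percentile. Probes well above background (on at least 0.5 of their spots) on at least 4 of 8 arrays were kept, 21652 in all. The brightest probe stood for each gene, giving 19137 genes. Of 30367 probes, 18006 matched a symbol in RefSeq's table for GRCr8, to which the promoter windows belong too. Groups were compared with limma 3.58.1 in R 4.3.3 (moderated test, two-sided, Benjamini-Hochberg). The fit was tested on simulated data. Alternatives were other background corrections, scalings, filters and probe rules, the deposited table, a replicate block and leaving out arrays. The array flags used were those deposited by the authors' scanner software.

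The genes and lists were chosen with earlier results of these data known. Named were all 10 genes, up to 3 called genes with the largest change per list (the brightest where none was called) and the 5 closest to the mean. Mad2l1, Gmnn, Fzr1, Ube2s, Arpp19, Ensa, Pkmyt1, Wee1, Incenp, Birc5, Cdca8, Plk3 and the T cell genes were named after their values were seen. Each sample was a separate animal per the series' design text. Depth has no count on arrays, whose number limits the precision.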

Additional observations from a re-analysis of the deposited data

Results flagged for a closer look

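In 38 groups of 4 arrays, those of the 9 measured genes and of 10 named list genes in both treatments, the array farthest from the others was compared with the range of the group. In 2 groups it stood apart, and in both it was saline replicate 4. Chance gives 1 in 20 for a single group. The groups share the same arrays and are not independent, so their count cannot be weighed against chance. Cdk1 read 2.14 on saline replicate 4, against 1.45 to 1.52 on the other saline arrays. Espl1 read -1.49 on saline replicate 4, against -2.05 to -1.96 on the others.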

How the results depend on the processing

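The direction of Ccna2, Ccnb1, Ccnb2, Cdk1, Plk1, Aurkb, Cdc20 and Ube2c held in all alternatives run: normexp, quantile and median scaling, the deposited table, 2 other filters, limma with its trend and robust options, probes averaged or tested singly, the replicate block, and fits without each array in turn. Normexp gave 21 genes lower in place of 12. Cdk1 did not pass with median scaling (log2 fold change 1.71, limma adjusted p = 0.0629) or with no filter (1.75, 0.0700). Same-numbered arrays of the groups share a slide column but did not deviate together over all genes tested (r of -0.33 to -0.01). The series' design text gives no pairing, and the main fit did not take the numbers as pairs. For the measured genes other than Aurka the SE was smaller with the replicate block. It was 0.25 in place of 0.32 for Ccna2, 0.27 in place of 0.34 for Cdk1 and 0.20 in place of 0.23 for Aurkb. For Aurka the SE was larger, 0.30 in place of 0.27. With the replicate block, the log2 fold changes of 2.02 (Ccna2), 1.75 (Cdk1) and 1.74 (Aurkb) did not pass (limma adjusted p = 0.0685, 0.104 and 0.0663), and 0 genes were higher and 0 lower, 0 of the 9 genes and 0 of the other 54 among them, with 1035, 834, 7 and 25 at an unadjusted p under 0.05. Leaving out 1 array gave 11 to 273 genes higher and 0 to 93 lower, in place of 262 and 12, 0 to 3 of the 9 genes in place of 3, and 1 to 17 of the other genes in place of 14. The 0 of 9 arose without monocrotaline replicate 4 or saline replicate 1, with 5 and 6 at an unadjusted p under 0.05. The ranges were 1.79 to 2.27 for Ccna2, 1.54 to 2.02 for Cdk1, 1.54 to 1.90 for Aurkb and -0.08 to 0.28 for Aurka. Aurka was below 0 without monocrotaline replicate 1 (-0.076) or 4 (-0.085) or saline replicate 4 (-0.070). Leaving out monocrotaline replicates 1 and 3, chosen after seeing the data, gave 51 genes higher, 1 lower, 0 of the 9 and 4 of the others, with 2.06 for Ccna2, 1.83 for Cdk1, 1.53 for Aurkb and -0.085 for Aurka. These fits have fewer arrays. The cause of the other changes was not tested.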
